A study of Mus musculus with 4 samples.

Results

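The bone morphogenetic protein (BMP) receptors and SMADs are described here through 10 genes, the type I receptors Bmpr1a, Bmpr1b and Acvr1, the type II receptor Bmpr2, and Smad1, Smad4, Smad5, Smad6, Smad7 and Smad9. All probe sets whose platform annotation names 1 of these genes and no other were taken, which gave 28 of the 45037 probe sets of the array that are not controls. A probe set is a group of short probes read as 1 value, and some probe sets can match more than 1 transcript. Total RNA was measured on 4 Affymetrix arrays of cultured neuroepithelial cells, the dividing precursors of forebrain neurons, astrocytes and oligodendrocytes, from the telencephalon of ICR mouse embryos. The first group of 2 arrays held cells of embryonic day 14.5 (E14.5) cultured for 4 days, and the other group of 2 arrays held cells of embryonic day 11.5 (E11.5) cultured for 1 day. Both cultures were grown with 10 ng/ml basic FGF on dishes coated with poly-L-ornithine and fibronectin, and no BMP was listed among the additions. Embryonic age and days in culture changed together, so their effects cannot be told apart. The labels do not say whether the replicates came from separate litters or cultures, so p-values cover no more than the spread of these 4 arrays, part or all of which may be technical.

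BMPs bind a complex of type I and type II serine/threonine kinase receptors at the cell surface. The type II receptor phosphorylates the type I receptor, which phosphorylates the receptor-regulated SMADs Smad1, Smad5 and Smad9. These bind the common partner Smad4 and enter the nucleus, where they act on genes such as those of the Id family, while Smad6 and Smad7 are induced by the pathway and inhibit it. In the developing forebrain, BMPs are known for patterning the dorsal midline early and for promoting astrocyte formation from late precursors.

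The promoters of the 3 receptor genes with a probe set that rose, and that of the feedback inhibitor Smad6, are shown because SMAD proteins are known to bind short DNA elements of defined sequence. Each window runs from 250 bases before to 50 bases after an annotated start, read 5′ to 3′ on the gene's strand, from RefSeq on GRCm38.p6. Capitals mark the palindromic SMAD-binding element GTCTAGAC and the GC-rich element GGCGCC, both of which read the same on either strand and do not overlap here.
Bmpr1b, chr3:141982215-141982514, minus strand: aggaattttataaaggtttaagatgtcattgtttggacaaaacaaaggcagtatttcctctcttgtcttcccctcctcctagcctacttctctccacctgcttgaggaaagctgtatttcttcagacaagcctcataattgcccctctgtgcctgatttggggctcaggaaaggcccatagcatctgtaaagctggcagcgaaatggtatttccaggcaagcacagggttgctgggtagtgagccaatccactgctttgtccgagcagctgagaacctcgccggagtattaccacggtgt
Bmpr1a, chr14:34502497-34502796, minus strand: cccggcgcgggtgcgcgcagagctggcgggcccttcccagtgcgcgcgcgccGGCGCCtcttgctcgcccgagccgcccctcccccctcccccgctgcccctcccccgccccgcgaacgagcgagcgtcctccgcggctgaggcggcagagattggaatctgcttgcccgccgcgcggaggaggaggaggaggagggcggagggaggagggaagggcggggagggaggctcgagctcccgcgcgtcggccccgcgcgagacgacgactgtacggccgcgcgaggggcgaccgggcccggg
Bmpr2, chr1:59764029-59764328, plus strand: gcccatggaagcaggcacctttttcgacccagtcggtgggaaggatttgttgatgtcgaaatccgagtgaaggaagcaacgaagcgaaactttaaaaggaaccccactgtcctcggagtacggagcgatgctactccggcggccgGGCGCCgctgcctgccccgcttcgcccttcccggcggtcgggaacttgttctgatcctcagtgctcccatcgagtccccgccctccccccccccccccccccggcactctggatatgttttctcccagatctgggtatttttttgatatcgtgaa
Smad6, chr9:64022010-64022309, minus strand: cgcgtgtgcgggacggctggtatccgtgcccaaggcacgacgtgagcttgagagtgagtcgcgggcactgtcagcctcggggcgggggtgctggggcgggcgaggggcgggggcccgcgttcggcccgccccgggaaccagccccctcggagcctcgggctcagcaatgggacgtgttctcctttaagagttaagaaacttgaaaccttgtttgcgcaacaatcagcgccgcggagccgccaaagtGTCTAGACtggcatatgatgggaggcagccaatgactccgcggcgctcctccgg

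Windows were found for 8 of the 10 genes and not for Smad4 and Smad7, whose promoters were therefore not searched. There were 12 windows in all because Bmpr1b and Smad5 have 3 each, and only 1 of the 3 windows of Bmpr1b is printed above. GTCTAGAC was in 1 of these, that of Smad6, starting at base 247 counted from the window's 5′ end, against 0.213% of 32851 windows of the same length over all genes. GGCGCC was in 5 member windows, of Bmpr1a, Bmpr2, Smad5 and Smad9, against 11.9% of all windows, and 2 of the 5 are overlapping windows of Smad5. The letters GTCT or AGAC, 1 arm of the palindrome, were in 10 member windows and in 88% of all windows. The windows of Bmpr1b held neither GTCTAGAC nor GGCGCC, and their GC content was 48.3%, 53% and 55.7%, against a median of 52.7% over all windows. The 5 windows with GGCGCC, an element made of G and C alone, held from 59.3% (Bmpr2) to 79.3% (Bmpr1a) GC, all above that median. The shares over all windows were not matched for GC content. A match is a description of the letters in these windows and says nothing of binding.

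The deposited values are linear intensities, and their 2% trimmed means were 154 and 103 on the E14.5 arrays and 187 and 252 on the E11.5 arrays, a spread of up to 2.43-fold. Each array was therefore multiplied by 1 factor to a common trimmed mean of 174, so every direction is relative to an array's overall brightness. The tested markers of telencephalic progenitors numbered 8; 2 rose, 3 fell and 3 did not pass, and the scaled signal summed over the list was 25002 and 26810 on the E14.5 arrays against 21248 and 19186 on the E11.5 arrays. For comparison with the counts of this paragraph, 14.3% of all tested genes were higher and 13.6% lower at their brightest probe set. Astrocyte markers rose at 7 of 7 genes, with sums of 13372 and 11727 at E14.5 against 3216 and 3991 at E11.5. Oligodendrocyte precursor markers rose at 6 of 6, with sums of 16720 and 19049 against 860 and 622. Neuronal markers fell at 6 of 7, with sums of 4417 and 4231 against 12475 and 12792. A sum follows its brightest genes: Map2, the neuronal marker that did not fall, gave 2825 and 2924 of the E14.5 sums. Among progenitor markers Fabp7 gave 10387 and 11975.5 of the E14.5 sums, while the dimmer Pax6, Sox1 and Emx2 fell. Microglia and macrophage markers rose at 7 of 8 tested genes (sums of 1536 and 1552 against 204 and 243), and meningeal and mesenchymal markers fell at 3 of 7 (671 and 593 against 1219 and 1221). Among endothelial markers, Pecam1, Cdh5, Tek and Cldn5 were below the filter, Kdr did not pass and Plvap rose (sums of 163 and 182 against 204 and 135), and the 2 tested erythroid markers fell (34.3 and 63.6 against 830 and 382). In these lists 14 of the 37 called markers had a lower-group mean under 27.3, the filter applied to the mean of the 4 arrays, and were tested only through the group where they were high. They were Plvap, both erythroid markers, 5 microglia and 3 astrocyte markers, 2 oligodendrocyte precursor markers (Cspg4 and Gpr17) and the neuronal marker Tbr1. Each cell type contributes to a bulk signal, so fewer cells of a type and less RNA per cell cannot be told apart, and the part these shifts play in the receptor and SMAD signals was not tested.

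Of the 28 probe sets, 25 had a mean scaled signal over the 4 arrays at or above the filter of 27.3 and were tested with limma as E14.5 minus E11.5, on log2 of the signal plus a constant of 12.8. The test's threshold was an adjusted p of 0.05 (Benjamini-Hochberg over 27022 probe sets). Rises were found at 5 probe sets, 1 of them tested only because of its E14.5 level, and a fall at 1, which makes 24% of those tested, against 23.7% of all probe sets tested (11.1% higher and 12.6% lower). The share of receptor and SMAD probe sets that changed was thus near the background. The scaled signals of the groups did not overlap at 17 probe sets, 11 with E14.5 above and 6 with E14.5 below, against 61.9% of all tested probe sets (30.1% above and 31.9% below). The median difference was 0.05 on the log2 scale, against -0.01 over all tested probe sets. By gene, at the brightest tested probe set of each, 3 of 9 genes rose, none fell and 6 missed the threshold, against 14.3% higher and 13.6% lower of 12952 genes. The rises were in the receptors Bmpr1b, Bmpr1a and Bmpr2, and the fall was in a single probe set of Smad5.

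**Figure D1:**
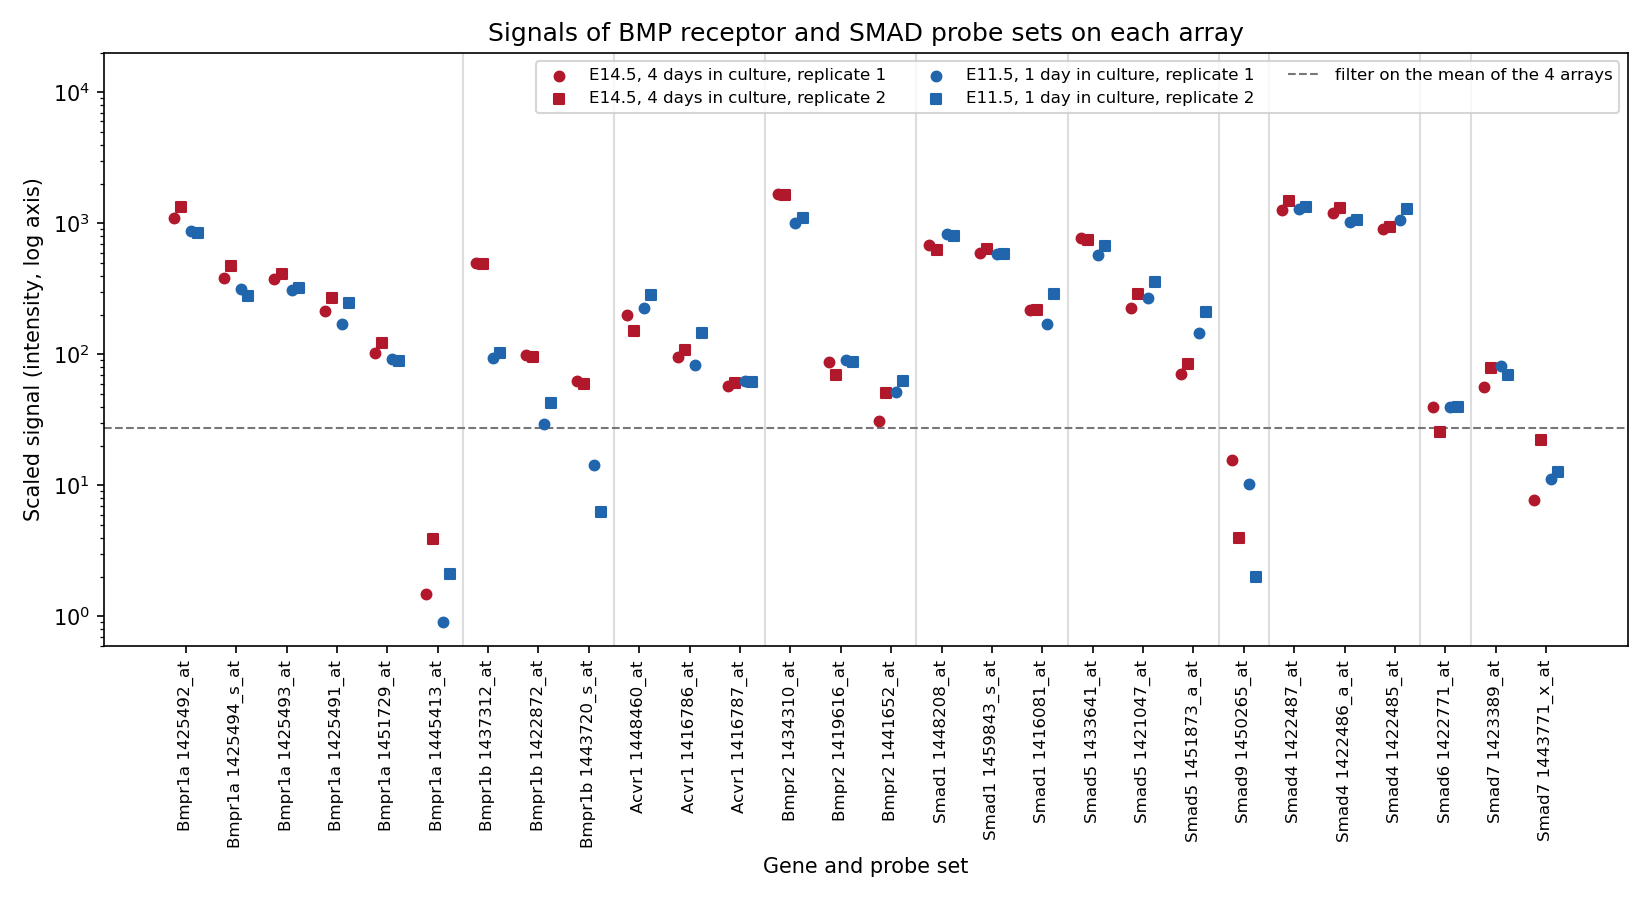
Scaled signal (intensity, log axis) of each of the 28 probe sets on the 4 arrays, with E14.5 arrays in red and E11.5 arrays in blue, circles for replicate 1 and squares for replicate 2. The dashed line is the filter of 27.3 on the mean of the 4 arrays. The red points lie above the blue ones at all 3 probe sets of Bmpr1b; levels of different probe sets cannot be compared with each other.

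Bmpr1b, a type I receptor kinase, gave the largest difference among the 10 genes and rose at both probe sets whose mean was above the filter in each group. Its brightest probe set, 1437312_at, had scaled signals of 496 and 489 on the E14.5 arrays and 93.4 and 102 on the E11.5 arrays. The groups lay far apart, with each pair of replicates close together. The log2 difference was 2.19 ± 0.17 (SE, with n = 2 arrays per group here and wherever an SE is printed), a fitted 4.58-fold rise, with a 95% confidence interval of 1.82 to 2.57 and an adjusted p of 1.5e-05 in the limma fit. This rise does not hang on the scaling: the deposited intensities were 439 and 291 at E14.5 against 100 and 148 at E11.5.

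Probe set 1422872_at of Bmpr1b read 99.8 and 94.8 at E14.5 and 29.3 and 42.6 at E11.5, a difference of 1.19 ± 0.27 with a limma adjusted p of 0.010. As deposited, the 2 groups of this probe set overlapped, with 88.4 and 56.4 at E14.5 against 31.5 and 61.6 at E11.5. The dimmest of the 3, 1443720_s_at, read 62.6 and 59.1 at E14.5 and 14.4 and 6.24 at E11.5 (1.69 ± 0.36, limma adjusted p = 0.0075). Its E11.5 mean of 10.3 is below the added constant and below the filter, so it was tested only because of its E14.5 level and adds no support to the other 2, and its difference ran from 0.98 to 2.48 over larger and smaller constants. All 3 kept their rise and their call in each alternative that tested them, including leaving out any 1 array. The suffix _s_at marks probes that can match more than 1 transcript.

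Bmpr1a, the more broadly expressed relative of Bmpr1b, rose at 1 of 5 tested probe sets. Its brightest, 1425492_at, had 1108 and 1342 at E14.5 and 877 and 853 at E11.5. The groups did not overlap, and the difference was 0.49 ± 0.14, a fitted 1.40-fold rise (limma adjusted p = 0.029, interval 0.18 to 0.80). This rise depends on the scaling: as deposited, the intensities were 981 and 798 at E14.5 against 942 and 1233 at E11.5, so that the groups overlapped. The call was lost in 4 of 12 alternatives, among them leaving out E14.5 replicate 2 (0.35), and the adjusted p ran from 0.020 to 0.20 over the 12.

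Bmpr1a probe set 1425494_s_at read 384 and 475 at E14.5 and 315 and 281 at E11.5, and just missed the threshold (0.50 ± 0.17, limma adjusted p = 0.052). It passed in 6 of 12 alternatives, with adjusted p from 0.032 to 0.27, including without E14.5 replicate 1 (0.65) and without E11.5 replicate 1 (0.58), and was at 0.36 without E14.5 replicate 2. The other 3 tested probe sets, 1425493_at, 1425491_at and 1451729_at, did not pass, with differences of 0.30, 0.21 and 0.27. Non-overlapping groups, E14.5 above E11.5, were seen at 4 of the 5 probe sets, against 30.1% of all tested probe sets, and these share a transcript and are not independent. The sixth probe set of Bmpr1a, 1445413_at, was at 1.48 and 3.89 at E14.5 and 0.911 and 2.12 at E11.5, below the filter, and was not tested.

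Acvr1, a type I receptor that binds BMPs and activins, did not pass at any of 3 probe sets. The brightest, 1448460_at, had 201 and 151 at E14.5 and 225 and 285 at E11.5, so that both E14.5 arrays were lower. Its difference was -0.51 ± 0.20 (interval -0.96 to -0.05, limma adjusted p = 0.10). Leaving out E14.5 replicate 1 (-0.70) or E11.5 replicate 1 (-0.67) made it pass as lower, and leaving out E14.5 replicate 2 (-0.31) or E11.5 replicate 2 (-0.34) made it smaller, while over 12 alternatives the adjusted p ran from 0.041 to 0.41. Probe sets 1416786_at (-0.12 ± 0.27) and 1416787_at (-0.06 ± 0.26) had intervals of -0.71 to 0.48 and -0.63 to 0.51.

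The 3 type I receptors can be set against each other within each array, where the scaling nearly cancels. At the brightest probe sets, the log2 ratio of Bmpr1b to Bmpr1a was 1.71 higher at E14.5 (1.85 and 1.56 on the 2 E14.5 arrays, relative to the E11.5 mean, around which the E11.5 arrays lay at 0.08 to either side). The ratio of Bmpr1b to Acvr1 was 2.70 higher (2.52 and 2.89, with E11.5 arrays at 0.11 to either side), and that of Acvr1 to Bmpr1a fell by 1.00 (-0.66 and -1.33, with E11.5 arrays at 0.18). These ratios describe these arrays, and whether the probe sets changed unequally was not tested. With 2 arrays against 2, no exact two-sided permutation p can lie below 0.333.

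Bmpr2, the type II receptor that activates these kinases, rose at its brightest probe set and not at the other 2. Probe set 1434310_at read 1668 and 1640 at E14.5 and 1000.2 and 1092 at E11.5. The E14.5 arrays stood above both E11.5 arrays, and the difference was 0.66 ± 0.12, a fitted 1.58-fold rise (interval 0.38 to 0.93, limma adjusted p = 0.0038). This rise depends on the scaling too, since the deposited intensities overlapped, with 1478 and 975 at E14.5 against 1073 and 1579 at E11.5. The call was lost without the trend of variance on signal (adjusted p = 0.056; 0.00082 to 0.056 over 12 alternatives) and kept in the other 11.

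The dimmer Bmpr2 probe sets pointed the other way without passing. Probe set 1419616_at had 87.8 and 69.6 at E14.5 and 91.4 and 87.5 at E11.5 (-0.17 ± 0.24), and 1441652_at had 30.9 and 50.9 at E14.5 and 51.3 and 62.8 at E11.5 (-0.40 ± 0.31). Within arrays, the log2 ratio of 1434310_at to 1419616_at was 0.82 higher at E14.5 (0.69 and 0.95 on its 2 arrays), and to 1441652_at 1.06 higher (1.34 and 0.77). On these arrays the estimates of the Bmpr2 probe sets differed in direction, and whether their changes differ was not tested. Which part of the transcript each one reads was not analysed here.

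**Figure D2:**
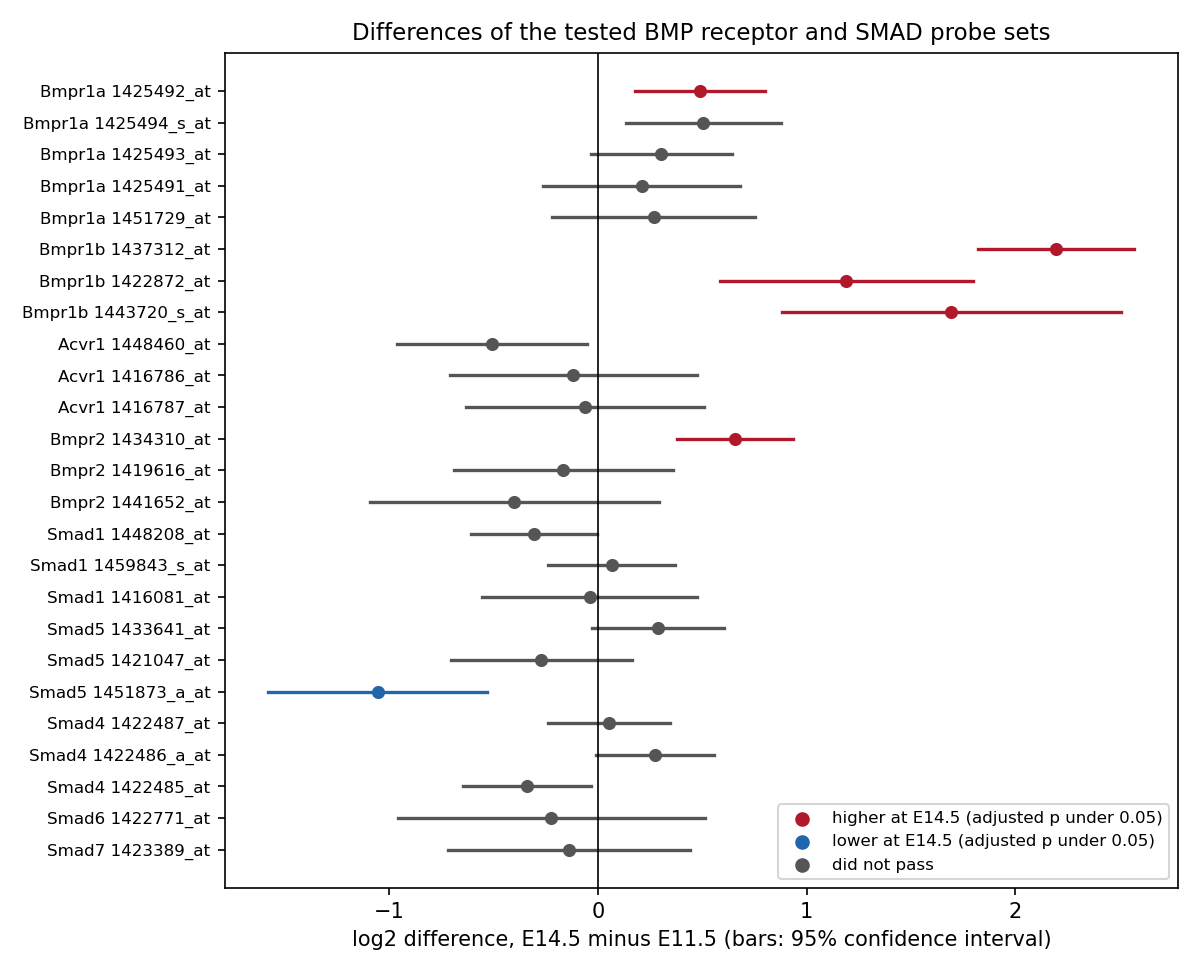
Log2 difference, E14.5 minus E11.5, of the 25 tested probe sets, with bars for the 95% confidence interval of the limma fit; red passed as higher, blue as lower, and grey did not pass. The 3 probe sets of Bmpr1b lie at 1.19 to 2.19, and probe sets of Bmpr2 and of Smad5 fall on both sides of 0.

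Among the receptor-regulated SMADs, which carry the signal from the receptors, Smad1 did not pass at any probe set. Probe set 1448208_at of Smad1 had 689 and 623 at E14.5 and 832 and 795 at E11.5. Both E14.5 arrays were lower, by a log2 difference of -0.31 ± 0.14 (interval -0.61 to -0.01, limma adjusted p = 0.13). Probe set 1459843_s_at read 592 and 633 at E14.5 against 583 and 586 at E11.5 (0.07 ± 0.14), and 1416081_at read 217 and 218 against 172 and 291 (-0.04 ± 0.23). The spread of the last comes from the E11.5 arrays, and its sign turned without E11.5 replicate 2 (0.32).

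Smad5, a close relative of Smad1, fell at 1 of 3 probe sets. Probe set 1451873_a_at had 70.8 and 84.2 at E14.5 and 145 and 209 at E11.5. The groups did not overlap, and the difference was -1.06 ± 0.23, a fitted 2.08-fold lower signal (interval -1.58 to -0.53, limma adjusted p = 0.0089). The deposited intensities did not overlap either, with 62.7 and 50.03 at E14.5 against 155 and 303 at E11.5. The call was lost without E11.5 replicate 2 (-0.81; adjusted p 0.00060 to 0.060 over 12 alternatives). The suffix _a_at marks probes that match several transcripts of 1 gene.

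The brightest Smad5 probe set, 1433641_at, went the other way without passing, with 777 and 751 at E14.5 and 576 and 676 at E11.5 (0.29 ± 0.14, interval -0.03 to 0.60, limma adjusted p = 0.18). Probe set 1421047_at had 226 and 287 at E14.5 and 269 and 357 at E11.5 (-0.27 ± 0.19). Within arrays, the log2 ratio of 1433641_at to 1451873_a_at was 1.34 higher at E14.5, at 1.47 and 1.21 on the 2 arrays. Thus the fall belongs to 1 probe set and cannot be given as a change of Smad5 as a whole.

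Smad9, the third receptor-regulated SMAD of the pathway, has 1 probe set, which read 15.8 and 3.96 at E14.5 and 10.2 and 1.98 at E11.5. Its replicates differed more than the groups did, and with a mean of 7.97 it was below the filter and was not tested.

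Smad4, the partner shared with the activin and TGF-beta branch, had high signals on all arrays and no call. Probe set 1422487_at read 1268 and 1478 at E14.5 against 1300.2 and 1337 at E11.5, a difference of 0.05 ± 0.13 with an interval of -0.24 to 0.35. Probe set 1422486_a_at was higher on both E14.5 arrays (1199 and 1316, against 1021 and 1053; 0.27 ± 0.13, limma adjusted p = 0.16). By contrast, 1422485_at was lower on both (905 and 940, against 1070.4 and 1280; -0.34 ± 0.14, limma adjusted p = 0.11), passing as lower when E11.5 replicate 1 was left out (-0.47) and lying at -0.21 without E11.5 replicate 2. The log2 ratio of these probe sets within arrays, 1422486_a_at over 1422485_at, was 0.61 higher at E14.5.

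The inhibitory SMADs were dim. Smad6, which blocks BMP signalling and whose promoter carries the GTCTAGAC element shown above, had 40.0 and 25.8 at E14.5 and 39.8 and 40.0 at E11.5. The groups overlapped, and its interval of -0.96 to 0.51 (-0.22 ± 0.33) spans a wide range of change in either direction. Smad7, which inhibits both BMP and TGF-beta receptors, had 56.8 and 78.9 at E14.5 and 81.8 and 69.2 at E11.5 at 1423389_at (-0.14 ± 0.26, interval -0.72 to 0.44). Its second probe set, 1443771_x_at, had a mean of 13.5 and was not tested; _x_at marks probes that may match unrelated transcripts. Just inside the filter lay 1443720_s_at of Bmpr1b, with a mean over the 4 arrays of 35.6, and Smad6, with 36.4.

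The other genes of the pathway were taken from 6 lists by role, each gene at its brightest probe set. Of 95 listed genes 71 were tested; 11 rose, 14 fell and 46 missed the threshold, which makes 35.2% called against 27.8% of all tested genes (14.3% higher and 13.6% lower), with a median difference of -0.09 against 0.03 over all tested genes. Of 11 BMP ligands on the array 7 were below the filter, and none of the 4 tested passed. Bmp7, the brightest of them, had 137 and 222 at E14.5 against 155 and 143 at E11.5 (0.22 ± 0.23), and Gdf2 48.9 and 71.6 against 48.8 and 45.3 (0.27 ± 0.29).

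Secreted antagonists and modulators of BMPs, 10 of them tested, were higher at 3 genes and lower at 1, or 40% called against 27.8% of all genes. Of these 4 genes Nbl1 and Fst each had a mean below the filter in their lower group, so they were tested only through the group where they were high. Bmper, which binds BMPs outside the cell, had 462 and 629 at E14.5 and 111 and 133 at E11.5 (2.04 ± 0.19), and Nbl1, an antagonist of the DAN family, 140 and 87.8 against 10.5 and 31.7 (1.94 ± 0.37). Bmp1, a metalloprotease and not a BMP ligand, rose by 0.99 ± 0.24. Follistatin (Fst), an activin antagonist that also binds BMPs, fell (33.7 and 5.65 against 78.6 and 80.3; -1.66 ± 0.43); the calls of Bmp1 and Fst were lost without a filter and without the variance trend. The size of both hung on 1 array, since Fst was at -0.99 without E14.5 replicate 2 and Bmp1 at 0.58 without E11.5 replicate 2. Fstl1 (-0.55 ± 0.19) and Twsg1 (-0.21 ± 0.17) did not pass, and Fstl1 passed as lower in 5 of 13 alternatives, among them without E14.5 replicate 1 (-0.84) and without E11.5 replicate 2 (-0.63), and lay at -0.25 without E14.5 replicate 2.

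The co-receptors of the repulsive guidance molecule family, which bind BMPs and enhance signalling, moved in opposite directions. Rgma had 772 and 615 at E14.5 and 270 and 242 at E11.5 (1.39 ± 0.16), while Rgmb had 121 and 84.0 at E14.5 and 301 and 279.5 at E11.5 (-1.41 ± 0.21). Neo1, their receptor neogenin (-0.09 ± 0.14), and the pseudoreceptor Bambi (-0.46 ± 0.26) did not pass, which makes 1 of 6 tested genes higher and 1 lower, or 33.3% called against 27.8% of all genes.

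The receptors and SMADs of the rest of the TGF-beta family were lower at 6 of 9 tested genes and higher at none, against 13.6% lower over all genes. The type I receptors Tgfbr1 (-0.91 ± 0.13) and Acvr1b (-0.84 ± 0.16), the type II receptors Acvr2b (-1.33 ± 0.16) and Acvr2a, which also serve BMPs, and Smad2 and Smad3 fell. Smad3, the activin and TGF-beta counterpart of Smad1, had 224 and 233 at E14.5 and 417 and 459 at E11.5 (-0.90 ± 0.16, limma adjusted p = 0.0023). Tgfbr2 (0.17 ± 0.21) and Acvrl1 (0.86 ± 0.37), a receptor that signals through Smad1 and Smad5 in endothelium, did not pass. Over 12 alternatives 4 to 6 genes of this list passed as lower, with 4 when E14.5 replicate 1 was left out. The call of Smad2 (-0.49 ± 0.15) was lost in 7 of 13 alternatives (adjusted p 0.022 to 0.22), among these without E14.5 replicate 1 (-0.45), E14.5 replicate 2 (-0.53) or E11.5 replicate 2 (-0.37). That of Acvr2a (-0.55 ± 0.15) was lost in 3 of 13 (adjusted p 0.012 to 0.14), among these without E14.5 replicate 1 (-0.39).

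Within arrays, 7 pairs set a BMP receptor or SMAD against a related gene of this list, each at its brightest probe set. The log2 ratio of Bmpr1a to Tgfbr1 was 1.39 higher at E14.5 (1.21 and 1.57 on the 2 E14.5 arrays, with the E11.5 arrays at 0.03 to either side of their mean), and that of Bmpr1a to Acvr1b 1.33 higher. For Bmpr2 over Acvr2b it was 1.99 higher (1.94 and 2.03, with the E11.5 arrays at 0.02), and over Acvr2a 1.20 higher. Smad1 over Smad3 was 0.59 higher (0.69 and 0.49, with the E11.5 arrays at 0.10), although Smad1 itself did not pass. Smad5 over Smad2 was 0.77 higher and Smad4 over Smad3 was 0.95 higher. These ratios depend on the probe set taken. The Smad5 probe set 1451873_a_at fell by more (-1.06) than Smad2 did (-0.49). The dimmer Bmpr2 probe sets had negative estimates (-0.17 and -0.40) where the brightest rose. The pairs were chosen after the values were seen, so they describe these arrays and are not tested. Other pairs were left out, and not all would point the same way. Acvr1 had a negative estimate (-0.51) and Acvrl1 a positive estimate (0.86), neither of which passed.

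**Figure D3:**
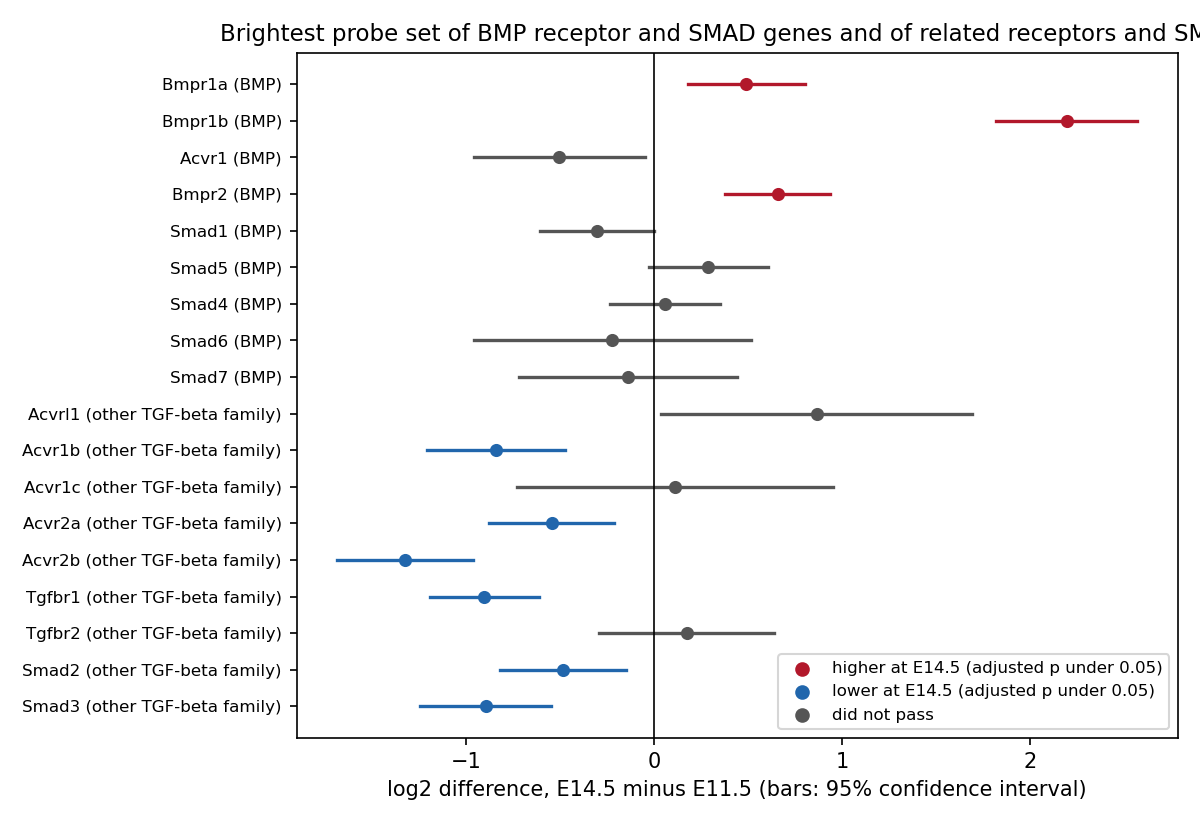
Log2 difference, E14.5 minus E11.5, at the brightest probe set of the 9 tested BMP receptor and SMAD genes and of the 9 tested receptors and SMADs of the rest of the TGF-beta family, with 95% confidence intervals. In the BMP set 3 genes passed as higher and none as lower, though a dimmer Smad5 probe set, not drawn here, passed as lower. In the other set 6 passed as lower and none as higher. Over all tested genes 14.3% were higher and 13.6% lower. The other set holds Acvr2a and Acvr2b, which also serve BMPs, and Acvrl1, which signals through Smad1 and Smad5.

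Regulators and partners of SMADs were higher at 4 and lower at 4 of 31 tested genes, or 25.8% called, near the 27.8% of all genes. The zinc finger factor Zeb1, which binds SMADs, rose (3513 and 3937 at E14.5, 1266 and 1302 at E11.5; 1.52 ± 0.12), as did the phosphatase Ctdsp1 (0.87 ± 0.14). The corepressor Tgif1 (-1.40 ± 0.23) and Zfp423, a zinc finger partner of SMADs at BMP response elements (-1.18 ± 0.19), fell. Fkbp1a, an inhibitor of type I receptors (-0.01 ± 0.12), and the ubiquitin ligase Stub1 (-0.38 ± 0.14) did not pass; Stub1 passed as lower under quantile normalization and without E11.5 replicate 2 (-0.53), and was at -0.23 without E11.5 replicate 1.

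Genes known as targets of BMP signalling moved in both directions, with 3 higher, 2 lower and 6 not passing of 11 tested, against 14.3% higher and 13.6% lower of all genes. Id1, an inhibitor of basic helix-loop-helix factors, had 554 and 644 at E14.5 and 388 and 279 at E11.5 (0.84 ± 0.18, limma adjusted p = 0.0079). Its call was lost without the variance trend. Hes5, also a Notch target, rose by 1.81 ± 0.16, whereas Id4 (-1.78 ± 0.16) and Dlx5, a gene of ventral neurons as well (-3.00 ± 0.21), fell. Id3 (0.44 ± 0.18) and Id2 (0.20 ± 0.14) did not pass, and Id3 passed without E11.5 replicate 1 (0.72) and was at 0.17 without E11.5 replicate 2.

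**Figure D4:**
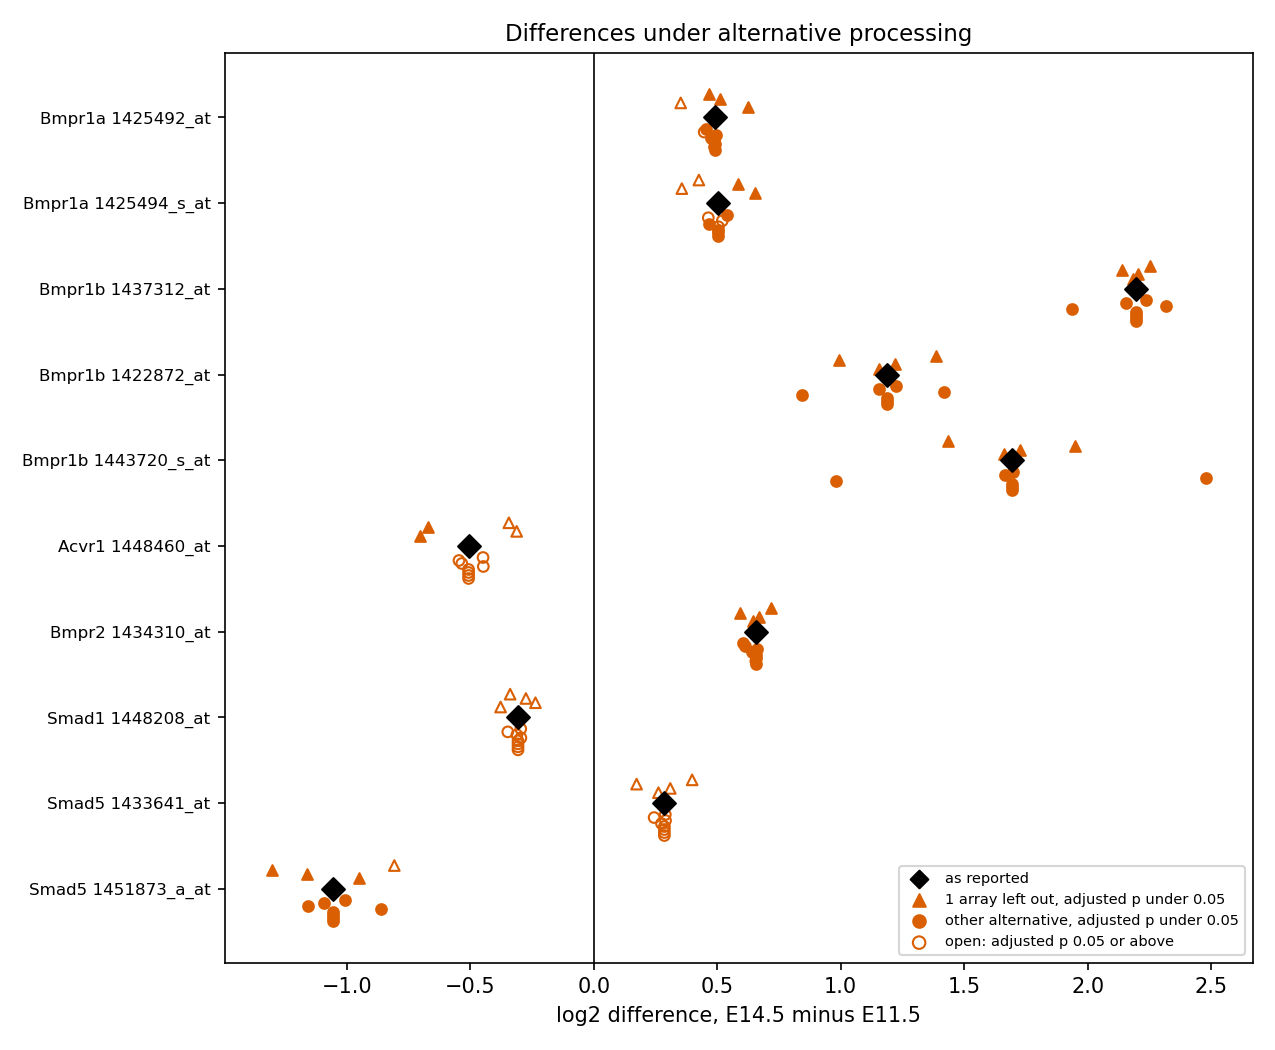
Log2 difference, E14.5 minus E11.5, of 10 probe sets as reported (black diamonds), with 1 array left out (triangles) and under the other alternatives (circles); filled symbols have a limma adjusted p under 0.05 and open ones do not. The 3 probe sets of Bmpr1b stay filled in each alternative that tested them, and a higher filter tested only the brightest. The dimmest of them was tested only because of its E14.5 level and adds no support to the others. Those of Bmpr1a and Acvr1 hold both filled and open symbols.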

How the data were processed

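The authors deposited 1 linear intensity per probe set and array, and the submitters' processing notes name GCOS, the array maker's software, with no version or settings; detection calls were not used. Groups and replicate numbers come from the sample titles. The 64 control probe sets were set aside. Arrays were scaled to a common 2% trimmed mean; probe sets with a mean at or above the 40th percentile (27.3) were tested, and a constant of 12.8 (the 25th percentile of the scaled signals) was added before log2, which shrinks differences of dim probe sets. Tests used limma 3.58.1 in R 4.3.3 (lmFit and eBayes, letting the variance follow signal), two-sided, with 2 residual and 7.99 prior degrees of freedom. The fit was also run on simulated data drawn to meet its own assumptions, which says nothing of how well these arrays meet them. The number of arrays limits the precision. The platform annotation named 1 gene for 34945 probe sets, several for 932 and none for 9160; of 10 member genes all had a probe set.

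Named were every probe set of the members and, of each role list, up to 4 called genes by size and up to 2 others by signal; Acvr2a and Smad2 were named after their values were seen. The members and lists were chosen with earlier results of these data known. Alternatives were quantile or median scaling, other constants and filters, no variance trend, a replicate block, leaving out each array, and, for the pathway genes, averaged probe sets.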

Additional observations from a re-analysis of the deposited data

How the results depend on the processing

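For the tested probe sets of the 10 genes, 272 values under alternatives kept direction and side of the threshold, 9 newly passed, 6 lost their call and 7 changed sign, none of these 7 among called probe sets. Without the variance trend 1919 probe sets were higher and 2097 lower, against 3012 and 3396, with 3 member probe sets higher and 9 pathway genes lower, against 5 and 14. With 1 array left out, 0 to 3 member probe sets were lower. Smad1 1416081_at turned sign under quantile normalization (0.011). Leaving out 1 array turned the sign of these uncalled probe sets, given with their lowest and highest difference: Smad1 1416081_at (-0.40 to 0.32), Acvr1 1416786_at (-0.48 to 0.25), Bmpr1a 1425491_at (-0.041 to 0.46), Smad4 1422487_at (-0.056 to 0.16), Smad6 (-0.45 to 0.0024) and Smad7 (-0.34 to 0.059). So it was with Bmp7 (-0.11 to 0.54), Neo1 (-0.20 to 0.020) and Fkbp1a (-0.070 to 0.053); the cause was not tested. The sample titles link same-numbered arrays by number alone. Their deviations correlated at r = 0.0041 across probe sets, which cannot settle whether they were handled together. With the replicate number as a block, 3312 probe sets rose and 3861 fell, among them 6 and 1 of the members' probe sets. Dim signals limit what can be said of Smad6, Smad9 and Smad7 1443771_x_at, and a wide interval limits Smad7 1423389_at.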
